A study of Mus musculus with 96 samples.

Results

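The liver comparison covered 6 of the 96 bulk RNA libraries of the series, 3 from wild-type mice and 3 from whole-body *Scx* knockout mice (Scx-/-), all aged 3 weeks. The libraries were chosen by tissue label alone, and every gene with a count in at least 1 of the 6 libraries was tested, which left 13356 of 41575 gene symbols. The series profiled 16 tissues in both genotypes with MuSeq, a barcoded bulk method that reads the 3′ ends of transcripts. Beyond the genotype, the allele, the strain, the sex of the animals, and the identity of the mouse behind each library were not given in the sources used here. The livers were taken as whole organs, so a gene read fewer times may reflect fewer cells of a type or less RNA per cell, and these cannot be told apart in bulk RNA.

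*Scx* encodes Scleraxis, a basic helix-loop-helix transcription factor that marks tendon and ligament progenitors and is not known as a liver gene. The liver is made mostly of hepatocytes, which secrete plasma proteins, break down amino acids, make urea, and oxidise drugs and lipids with cytochrome P450 enzymes. These tasks are divided along the lobule. Hepatocytes near the portal vein carry more of the urea cycle and amino acid breakdown, and those near the central vein carry more of the P450 enzymes. Hepatocytes also make most circulating insulin-like growth factor 1 in response to growth hormone, and many mouse P450 genes differ between adult males and females.

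No *Scx* count was found in any of the 6 liver libraries, so the gene could not check the liver labels. A limit of 3 counts corresponds to 2.97 CPM (counts per 1e6 counts of a library) over the wild-type libraries together and 1.55 CPM over the Scx-/- libraries together, for counting error only. Across the series, *Scx* had a count in 12 of 48 wild-type libraries and in 1 of 48 Scx-/- libraries. Hepatocyte markers dominated all 6 libraries. *Alb*, which encodes albumin, took 8.88% of the counts on average, and the summed hepatocyte markers took 19.6% to 24.4% of each library.

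The Scx-/- libraries were deeper than the wild-type libraries. Wild-type totals were 481409, 245271, and 283430 counts, and Scx-/- totals were 768443, 587758, and 580110, so that the totals did not overlap between genotypes. Genes detected ran from 7164 to 9001 in wild type and from 9240 to 10159 in Scx-/-. *Xist*, which is transcribed from the inactive X chromosome of females, was read in wild-type libraries 1 and 3 and in Scx-/- library 1, while Y-linked genes marked wild-type library 2 and Scx-/- libraries 2 and 3 as male. Each genotype therefore held both sexes, in unequal numbers. The shallowest library, wild-type library 2, was also the only male wild-type library, so depth and sex cannot be told apart in it. Over all 13356 genes tested, on log2 CPM with 1 added, each wild-type library had a mean correlation of 0.637 to 0.660 with the other wild-type libraries. For each of them this was below its mean correlation with the Scx-/- libraries (0.658 to 0.714). Each Scx-/- library was closer to its own genotype (0.734 to 0.736 against 0.676 to 0.694). Genes of few counts are included here, and the part of library depth in these correlations was not tested. Within a genotype no library was a copy of another. The chi-square statistic divided by its degrees of freedom was 11.4 to 12.4 between wild-type libraries and up to 10.9 between Scx-/- libraries. Pairs across genotypes were not compared in this way. In the values that follow, libraries 1, 2, and 3 of each genotype are given in that order, as CPM of the library total, and a gene is called where its adjusted *p* is under 0.05 in edgeR's quasi-likelihood test over all 13356 genes.

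Scx-/- livers had 40 called genes at higher levels (0.299% of the genes tested) and 19 at lower levels (0.142%). Together these were 0.442% of the genes tested. Those higher included 7 of 43 genes of amino acid breakdown, 2 of 13 of urea synthesis and ammonia handling, and 10 of 41 of the P450 list tested, and those lower included *Igf1*, *Egfr*, *Car3*, *Hspa5*, and 4 genes of the P450 list. The study's thresholds were an unadjusted *p* under 0.05 and more than a 2-fold change, which the study applied to DESeq2. Applied here to the edgeR test, they passed 573 genes (4.29%), and 47 of the 59 were among them, *Igf1*, *Apoe*, and *Rbp4* not. The libraries of the genotypes did not overlap in 37 of the genes called higher and 16 of those called lower, which the calls themselves favour, since they rest on the same libraries. Over all genes tested, 725 lay without overlap on the higher side (5.43%) and 479 on the lower side (3.59%). The called genes with overlap were *Hpd*, *Tat*, *Por*, *Orm1*, *Cyp2c40*, and *Aldh1a1*. A gene without overlap is also separated within the males and within the females, and of the 6 genes with overlap *Cyp2c40* was separated within both as well.

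These counts depended on how low genes, scaling, and single libraries were handled. When genes of low count were removed first (edgeR's filterByExpr), 5055 genes were tested and 6 were called, all of them among the 59: *A1bg*, *Cps1*, *Cyp2a5*, *Cyp2c69*, *Cyp2d26*, and *Mat1a*. Of the 59 genes, 56 were tested there, with an adjusted *p* of 0.0163 to 0.764. The split between directions moved with the scaling, from 40 higher and 19 lower with TMM factors to 32 higher and 24 lower with RLE size factors and to 27 higher and 31 lower with library totals alone. The median log2 fold change of the 4899 genes at a mean of 20 CPM or more was 0.07, −0.05, and −0.12 under these scalings. Without wild-type library 2, 37 genes were called, and 26 of the 59 were among them. Only 5 of the 19 genes called lower kept their call then (*A1bg*, *Car3*, *Cyp2c69*, *Cyp3a44*, and *Selenbp2*), against 21 of the 40 called higher. The genes called higher that lost their call were *Ang*, *Apoa2*, *Apoc1*, *Cdip1*, *Cdo1*, *Cyp2a22*, *Cyp2c29*, *Cyp4a14*, *Gnmt*, *Gstt3*, *Hpd*, *Ndufa6*, *Por*, *Rdh9*, *Rnr2*, *Sds*, *Slc16a10*, *Sult1a1*, and *Sult1d1*. Without Scx-/- library 2, 39 genes were called, 34 of them among the 59, and without Scx-/- library 3, 32 were, 29 of them among the 59. Of the 59 genes, 18 were called in each of the 6 fits that left out 1 library. These were *Apoe*, *Cps1*, *Cyp2a5*, *Cyp2c37*, *Cyp2d26*, *Cyp2e1*, *Igfbp2*, *Mat1a*, *Oat*, *Rbp4*, *Rnase4*, *Slc7a2*, and *Slco1a4* among those higher and *A1bg*, *Car3*, *Cyp2c69*, *Cyp3a44*, and *Selenbp2* among those lower, and each of the others lost its call in at least 1 of these fits. A term for sex left 49 of the 59 genes called.

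**Figure D1:**
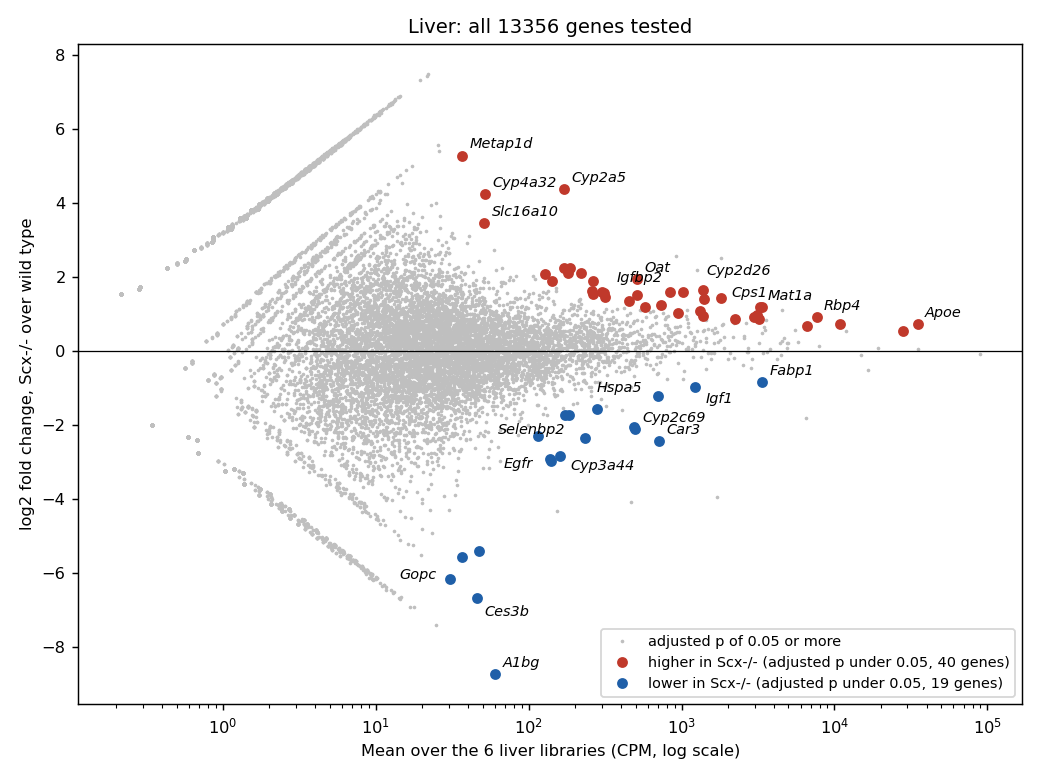
Log2 fold change of Scx-/- over wild type (y axis) against the mean CPM of the 6 liver libraries (x axis, log scale) for all 13356 genes tested, with genes of an adjusted p under 0.05 in red (40 higher) and blue (19 lower) and all others in grey. Called genes of high abundance moved little, as *Apoe* at 0.73, and those far below 0, such as *A1bg* at −8.74, were of low abundance.

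Growth hormone acts on hepatocytes through its receptor and drives *Igf1*, whose product circulates bound to carrier proteins. Of 22 genes of this axis that were tested, 1 was called higher and 1 lower. *Igf1* (chr10:87858265-87937042, + strand, GRCm38) was read at 1737, 1765, and 1574 CPM in wild type and at 825, 638, and 812 CPM in Scx-/-. All Scx-/- libraries lay below all wild-type libraries, and the replicates of each genotype lay close together. *Igf1* fell, with means of 1692 ± 103 and 758 ± 104 CPM (SD, n = 3) and a log2 fold change of −0.97 ± 0.25 (SE, adjusted *p* = 0.0277). With a term for sex the adjusted *p* was 0.0870, after filterByExpr 0.0904, and without wild-type library 2 0.0685, so *Igf1* was not called under these settings. It was called in 8 of 17 alternatives, among them DESeq2 (adjusted *p* = 0.000539), RLE size factors (0.00320), and library totals alone (0.00103). Of the 6 fits that left out 1 library, *Igf1* was called in 1, that without wild-type library 3.

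*Igfbp2*, which encodes a binding protein for insulin-like growth factors, was at 501, 167, and 709 CPM in wild type and at 1204, 1623, and 872 CPM in Scx-/-. The groups did not overlap. It rose by 1.59 ± 0.28 on the log2 scale (adjusted *p* = 1.02e-05). *Igfbp1*, another binding protein, stood at 58.2, 640, and 857 CPM against 1853, 2162, and 2024 CPM. Its groups did not overlap either, but the spread among the wild-type libraries was wide and it was not called (log2 fold change 2.18 ± 1.01, adjusted *p* = 0.746). *Igfals*, the acid-labile subunit that holds the circulating complex together, was at 189, 236, and 413 CPM in wild type and 74.2, 211, and 81.0 CPM in Scx-/-, with overlap and no call (−1.02 ± 0.42, adjusted *p* = 0.746). The growth hormone receptor gene *Ghr* was not called (−0.30 ± 0.34, adjusted *p* = 0.810). *Egfr*, the receptor of epidermal growth factor, was outside this list and was read at 137, 522, and 95.3 CPM in wild type and at 22.1, 27.2, and 32.8 CPM in Scx-/-. It fell by 2.97 on the log2 scale (SE 0.55, adjusted *p* = 3.94e-05). The wild-type level was set largely by library 2, without which the log2 fold change was −1.94 and the gene was not called (adjusted *p* = 0.696).

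**Figure D2:**
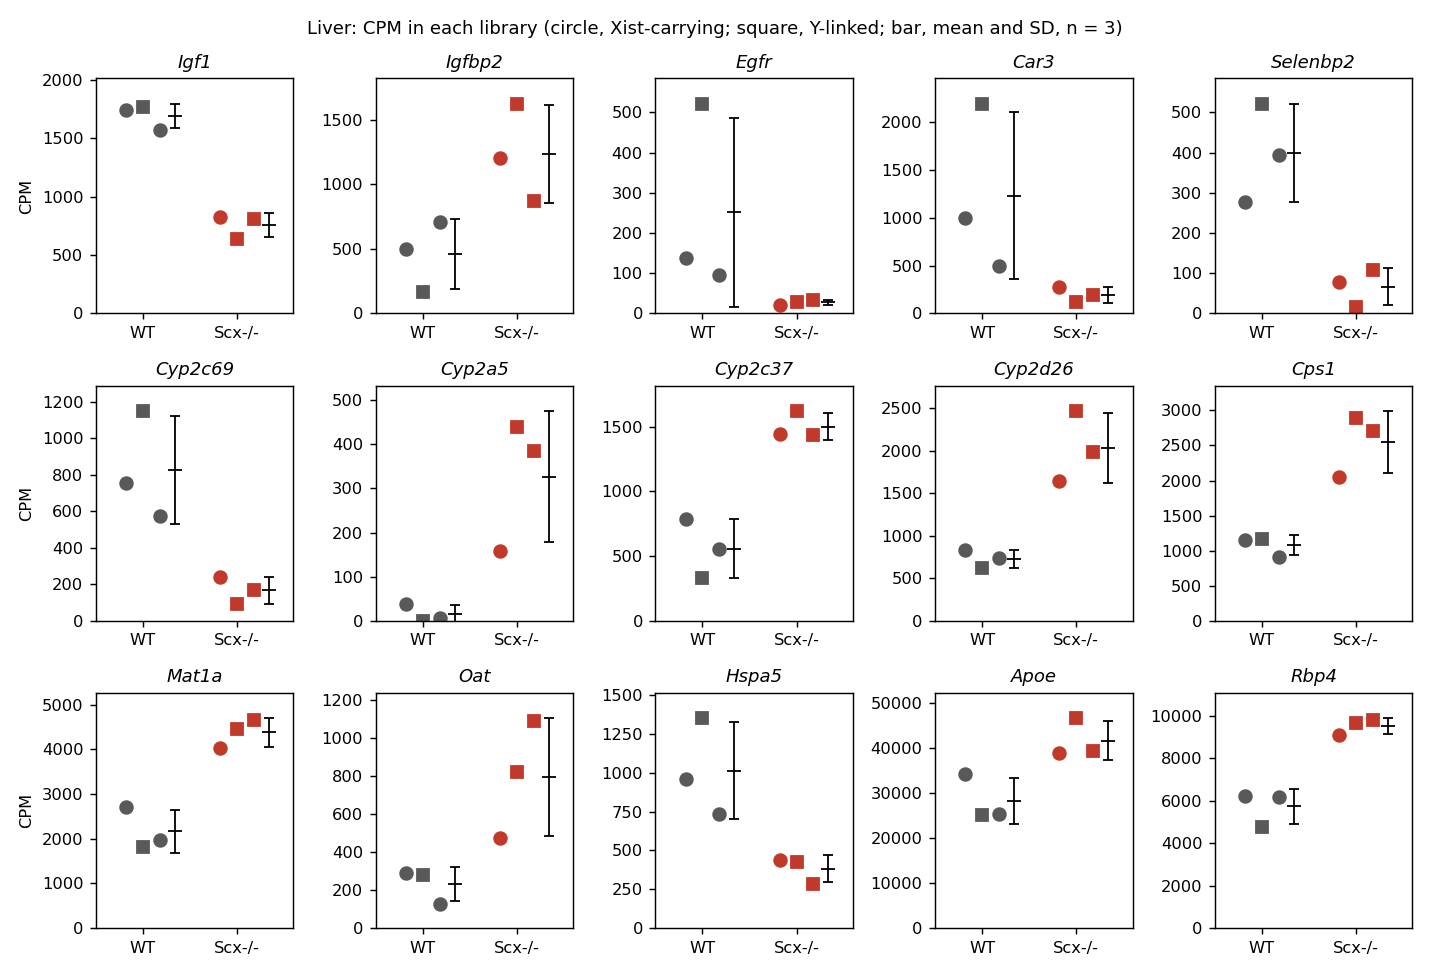
CPM of 15 called genes in each liver library (y axes from 0, one panel a gene), with wild type in grey, Scx-/- in red, circles for libraries with *Xist*, squares for libraries with Y-linked counts, and bars for mean and SD (n = 3). No panel has overlapping genotypes, and wild-type library 2, the grey square, is the highest wild-type point for *Egfr*, *Car3*, *Selenbp2*, *Cyp2c69*, and *Hspa5*.

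Amino acid breakdown was the list with the largest number of calls in 1 direction and none in the other. Of 43 members tested, 7 were called higher and 0 lower, and the median log2 fold change of the 42 members at 20 CPM or more was 0.71, beside 0.07 for all genes at that level. Of these 42, 36 were above 0. Summed, its members made up 2.61%, 2.00%, and 1.97% of the wild-type libraries and 3.07%, 3.30%, and 3.59% of the Scx-/- libraries, without overlap. The median was 0.59 with RLE size factors and 0.53 with library totals alone, so its sign did not turn on the scaling. The calls turned on single libraries. Without wild-type library 2, 3 of the 7 kept their call (*Ahcy*, *Mat1a*, and *Tat*), while 2 other members were called higher and *Csad*, which makes a precursor of taurine and was at 369.7 CPM in wild-type library 1 and at most 42.5 CPM elsewhere, was called lower. Without wild-type library 3 the list had 4 calls higher (*Cdo1*, *Gnmt*, *Mat1a*, and *Sds*) and 1 lower, again *Csad*. Without Scx-/- library 2 it had 4 calls and without Scx-/- library 3 it had 3, all of them higher. After filterByExpr only *Mat1a* was called.

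Consecutive enzymes of the methionine cycle were among them. *Mat1a*, which makes the methyl donor S-adenosylmethionine, was at 2707, 1814, and 1958 CPM in wild type and 4033, 4449, and 4659 CPM in Scx-/-. Its groups were well apart, and it rose by 1.19 ± 0.20 on the log2 scale (adjusted *p* = 4.64e-06). *Gnmt*, which uses S-adenosylmethionine to methylate glycine, was at 3344, 1827, and 1665 CPM against 3999, 3908, and 3977 CPM. The Scx-/- values of *Gnmt* lay within a narrow band above the wild-type range, and the log2 difference was 0.96 ± 0.20 (adjusted *p* = 0.00118). *Ahcy*, which hydrolyses the product S-adenosylhomocysteine, was at 447, 326, and 84.7 CPM against 618, 829, and 755 CPM and rose by 1.51 ± 0.31 (adjusted *p* = 0.000868).

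Tyrosine, cysteine, and serine breakdown each had called members. *Tat* and *Hpd* catalyse the first steps of tyrosine breakdown. *Hpd* was at 3702, 1537, and 2092 CPM in wild type and 3420, 4347, and 4256 CPM in Scx-/-, and *Tat* at 974, 1553, and 596 CPM against 1830, 1050, and 2317 CPM. Both overlapped between genotypes by 1 library, and the log2 fold changes were 0.87 ± 0.20 (adjusted *p* = 0.00633) and 0.94 ± 0.24 (adjusted *p* = 0.0277). *Cdo1*, the cysteine dioxygenase, was at 3008, 1146, and 2466 CPM against 3096, 3801, and 4213 CPM (0.91 ± 0.21, adjusted *p* = 0.00431). Without wild-type library 2, its lowest library, *Cdo1* was at 0.59 (adjusted *p* = 0.602), and *Hpd* lost its call as well (adjusted *p* = 0.459). *Sds*, which turns serine into pyruvate, was at 222, 102, and 155 CPM against 276, 441, and 602 CPM (1.61 ± 0.37, adjusted *p* = 0.00601).

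Ammonia from amino acids enters the urea cycle through *Cps1*. It was read at 1149, 1166, and 910 CPM in wild type and at 2047, 2896, and 2705 CPM in Scx-/-. The lowest Scx-/- library was above the highest wild-type library by a margin larger than the wild-type spread, and *Cps1* rose by 1.42 ± 0.23 on the log2 scale (adjusted *p* = 1.38e-06). *Oat*, the ornithine aminotransferase, was at 287, 277, and 127 CPM against 471, 822, and 1089 CPM and rose by 1.95 ± 0.32 (adjusted *p* = 1.59e-06). These were the 2 called genes among 13 of urea synthesis and ammonia handling. *Ass1*, a later enzyme of the cycle, was not called (0.86 ± 0.26, adjusted *p* = 0.128). The list took 0.625% to 0.717% of wild-type counts and 0.896% to 1.04% of Scx-/- counts. A pair of called genes on none of the lists encode carriers. *Slc7a2*, a carrier of cationic amino acids, was at 20.8, 179, and 84.7 CPM against 236, 429, and 378 CPM (2.11 ± 0.42, adjusted *p* = 0.000335), and was at 2.95 without wild-type library 2. *Slc16a10*, a carrier of aromatic amino acids, was at 12.5, 0, and 14.1 CPM against 97.6, 76.6, and 107 CPM (3.46 ± 0.90, adjusted *p* = 0.0305), and was called in 6 of 16 alternatives.

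Cytochrome P450 genes moved in both directions. Of 41 genes of the P450 list tested (families 1 to 3 and the reductase *Por*), 10 were called higher and 4 lower. Summed P450 counts made up 1.99% ± 0.12 of a wild-type library and 2.66% ± 0.36 of an Scx-/- library (SD, n = 3), and the libraries did not overlap. The median log2 fold change of members at 20 CPM or more was 0.70 with TMM factors, 0.61 with RLE size factors, and 0.54 with library totals alone. The list had 8 calls higher and 2 lower without wild-type library 2, 6 higher and 3 lower without Scx-/- library 2, and without Scx-/- library 3 it had 5 and 3.

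Apart from *Cyp2e1*, the called P450 genes lay in 5 tandem clusters of paralogs. In the *Cyp2c* cluster (chr19:39007019-40187333, GRCm38), 12 genes were tested, 3 were called higher, and 2 lower. *Cyp2c37* was at 785, 330, and 554 CPM in wild type and 1439, 1621, and 1436 CPM in Scx-/- (1.59 ± 0.26, adjusted *p* = 2.24e-06), and *Cyp2c50* at 976, 905, and 854 CPM against 1674, 1562, and 1907 CPM (1.09 ± 0.25, adjusted *p* = 0.00398). *Cyp2c29* was at 2198, 1329, and 1605 CPM against 2344, 2234, and 3687 CPM (0.86 ± 0.22, adjusted *p* = 0.0204). All 3 genes were higher in every Scx-/- library than in any wild-type library, though *Cyp2c29* by a small margin. *Cyp2c69*, the gene listed next to *Cyp2c37*, went the other way, at 756, 1150, and 572 CPM in wild type against 242, 90.2, and 165 CPM (−2.11 ± 0.33, adjusted *p* = 4.71e-07). *Cyp2c40*, on its other side, was at 233, 526, and 67.0 CPM against 59.9, 52.7, and 102 CPM, with overlap (−1.74 ± 0.46, adjusted *p* = 0.0418). *Cyp2c40* was at −0.95 and not called without wild-type library 2 (adjusted *p* = 0.824), and it was called in 6 of 16 alternatives. *Cyp2c70*, which takes part in the synthesis of muricholic acids, was at 1811, 1806, and 1683 CPM against 1264, 1439, and 1322 CPM and was not called (−0.22 ± 0.23, adjusted *p* = 0.810).

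The windows around the annotated starts of the 5 called genes are shown because members of 1 cluster that moved in opposite directions could be compared by their promoter sequence. Each window runs from 250 bases before to 50 bases after the start (RefSeq, GRCm38.p6), is given 5′ to 3′ on the gene's own strand, and has matches to the searched motifs in capitals. The genes called lower are *Cyp2c40* (chr19:39812765-39813064, − strand) and *Cyp2c69* (chr19:39886720-39887019, − strand), and those called higher are *Cyp2c29* (chr19:39286835-39287134, + strand), *Cyp2c37* (chr19:39992174-39992473, + strand) and *Cyp2c50* (chr19:40089429-40089728, + strand).
Cyp2c40: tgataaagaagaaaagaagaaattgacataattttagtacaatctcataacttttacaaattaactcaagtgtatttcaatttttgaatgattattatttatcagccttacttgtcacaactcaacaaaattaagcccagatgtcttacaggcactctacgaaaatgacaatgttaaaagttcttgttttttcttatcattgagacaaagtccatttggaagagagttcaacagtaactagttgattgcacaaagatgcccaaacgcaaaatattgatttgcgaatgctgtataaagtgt
Cyp2c69: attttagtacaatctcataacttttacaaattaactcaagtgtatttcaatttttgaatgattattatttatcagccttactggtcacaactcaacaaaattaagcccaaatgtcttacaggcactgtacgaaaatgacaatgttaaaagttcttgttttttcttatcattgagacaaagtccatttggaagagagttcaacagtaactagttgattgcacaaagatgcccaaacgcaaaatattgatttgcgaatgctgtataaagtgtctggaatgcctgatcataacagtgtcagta
Cyp2c29: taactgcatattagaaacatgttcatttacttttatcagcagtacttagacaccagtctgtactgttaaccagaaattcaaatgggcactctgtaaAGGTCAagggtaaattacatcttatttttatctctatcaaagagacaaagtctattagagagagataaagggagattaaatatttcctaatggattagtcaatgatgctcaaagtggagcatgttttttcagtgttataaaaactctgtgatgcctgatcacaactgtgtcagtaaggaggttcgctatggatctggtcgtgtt
Cyp2c37: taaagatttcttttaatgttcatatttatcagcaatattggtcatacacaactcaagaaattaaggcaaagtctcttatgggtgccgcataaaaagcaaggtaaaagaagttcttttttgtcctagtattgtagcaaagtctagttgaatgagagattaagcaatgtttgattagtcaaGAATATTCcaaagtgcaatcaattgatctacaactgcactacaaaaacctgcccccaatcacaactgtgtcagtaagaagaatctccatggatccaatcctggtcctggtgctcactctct
Cyp2c50: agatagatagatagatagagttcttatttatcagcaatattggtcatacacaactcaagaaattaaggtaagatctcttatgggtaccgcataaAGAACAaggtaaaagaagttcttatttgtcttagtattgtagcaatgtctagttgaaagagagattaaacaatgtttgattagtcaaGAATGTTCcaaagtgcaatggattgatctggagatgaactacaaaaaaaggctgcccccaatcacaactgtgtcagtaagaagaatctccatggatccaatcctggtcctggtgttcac

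The windows of the genes called lower were 98.9% identical to each other (267 of 270 aligned bases), and those of *Cyp2c37* and *Cyp2c50* were 91.1% identical (256 of 281). Between a gene called lower and either of *Cyp2c37* and *Cyp2c50*, identity was 67.7% to 68.8% over 215 to 257 aligned bases. The window of *Cyp2c29*, also called higher, was 63.1% identical to that of *Cyp2c37* and 63.8% to that of *Cyp2c50*, and 67.3% to that of *Cyp2c69* and 65.9% to that of *Cyp2c40*. The windows did not group by direction, since *Cyp2c29* was no closer to the genes called higher than to those called lower. The letters GAANNTTC, the heat shock element, occurred once in *Cyp2c37* and once in *Cyp2c50*, and in 7.86% of all 32851 windows. *Cyp2c50* also held AGAACA, a glucocorticoid receptor half-site, as did 18.97% of all windows, and *Cyp2c29* held AGGTCA, a nuclear receptor half-site found in 16.3% of them. *Cyp2c29* held no heat shock element. None of the 7 motifs searched occurred in the windows of *Cyp2c40* and *Cyp2c69*. The transcripts of these paralogs were not compared here, and how reads shared by paralogs were counted was not given in the sources used here, so the division of counts between close paralogs is uncertain.

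Other P450 clusters also mixed called and uncalled members. The *Cyp2a-Cyp2b-Cyp2f* cluster (chr7:25802475-27133660) had 10 genes tested, 3 called higher, and 1 lower. *Cyp2a5*, whose product oxidises coumarin and nicotine, was at 37.4, 0, and 7.06 CPM in wild type and at 157, 439, and 384 CPM in Scx-/-. This is 20 counts in wild type against 602 in Scx-/-, and it had the smallest adjusted *p* of the comparison (4.38 ± 0.52, adjusted *p* = 1.01e-12). Of the 20 wild-type counts 18 were in library 1, without which the log2 fold change was 6.54. *Cyp2b13* was at 133, 0, and 70.6 CPM against 255, 391, and 269 CPM (2.25 ± 0.51, adjusted *p* = 0.0127). Its log2 fold change ran from 1.71 without wild-type library 2 to 3.28 with a term for sex, and DESeq2 did not call it (adjusted *p* = 0.359). *Cyp2a22* was at 237, 53.0, and 219 CPM against 389, 473, and 491 CPM (1.56 ± 0.37, adjusted *p* = 0.00815). At the end of the cluster *Cyp2f2*, a periportal P450, was at 349, 1643, and 455 CPM against 178, 107, and 221 CPM (−2.04 ± 0.33, adjusted *p* = 1.59e-06). Without wild-type library 2 its log2 fold change was −1.08 and it was not called (adjusted *p* = 0.605).

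In the *Cyp2d* cluster on chromosome 15, 2 of 5 genes tested were called higher, and none lower. *Cyp2d26* was at 829, 620, and 734 CPM in wild type and 1650, 2472, and 1993 CPM in Scx-/- (1.65 ± 0.25, adjusted *p* = 7.56e-08). The genotypes did not overlap. Among 6 *Cyp3a* genes tested on chromosome 5, *Cyp3a44* fell, at 249, 139, and 469 CPM against 63.8, 11.9, and 27.6 CPM (−2.83 ± 0.50, adjusted *p* = 1.58e-05, and −3.66 without Scx-/- library 1), while the abundant *Cyp3a11* was not called (0.35 ± 0.19, adjusted *p* = 0.746). Of 6 *Cyp4a* cluster genes tested on chromosome 4, whose products hydroxylate fatty acids, *Cyp4a14* and *Cyp4a32* were called higher. *Cyp4a14* was at 486, 416, and 519 CPM against 556, 971, and 1436 CPM (1.24 ± 0.28, adjusted *p* = 0.00519). *Cyp2e1* on chromosome 7, which oxidises ethanol and lies outside these clusters, was at 2796, 1354, and 2544 CPM against 3646, 4345, and 5547 CPM (1.18 ± 0.20, adjusted *p* = 4.64e-06). *Por*, which passes electrons to the P450 enzymes, was at 258, 175, and 399 CPM against 315, 793, and 784 CPM with overlap (1.35 ± 0.33, adjusted *p* = 0.0114).

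**Figure D3:**
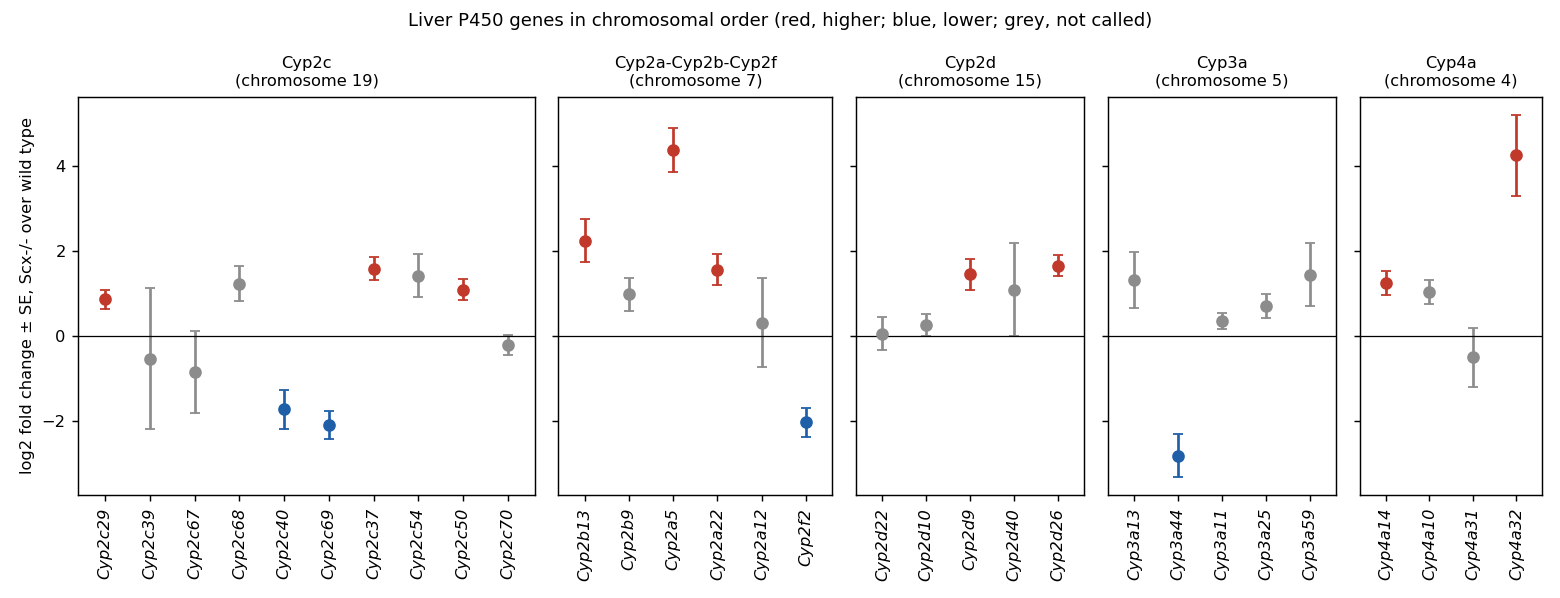
Log2 fold change with its SE (y axis) for P450 genes at a mean of 20 CPM or more, placed in chromosomal order within 5 clusters (x axis), with genes called higher in red, called lower in blue, and not called in grey. *Cyp2c40* and *Cyp2c69* at −1.74 and −2.11 stand beside *Cyp2c37* at 1.59, and *Cyp2a5* at 4.38 is the highest point.

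By lobule zone, 6 of 23 pericentral genes were called higher and 1 lower (*Aldh1a1*), and 2 of 20 periportal genes were called higher (*Cps1*, *Sds*) and 2 lower (*Cyp2f2*, *Igf1*). The median log2 fold change of members at 20 CPM or more was 0.70 for pericentral and 0.61 for periportal genes. The summed share did not overlap for either list, at 1.06% ± 0.15 in wild type and 1.69% ± 0.23 in Scx-/- for pericentral genes, and at 1.15% ± 0.14 and 1.40% ± 0.04 for periportal genes (SD, n = 3). These lists share members with the amino acid and P450 lists above, so they are not separate evidence. Among 35 conjugation enzymes, 3 were called higher and none lower. They were the sulfotransferases *Sult1a1* (902, 367, and 748 CPM against 1171, 1302, and 1202 CPM) and *Sult1d1*, and the glutathione transferase *Gstt3*, and none of them was called without wild-type library 2. *Slco1a4*, a carrier that takes up organic anions, was the called gene among 28 of bile acid synthesis and transport (135, 36.7, and 45.9 CPM against 307, 257, and 303 CPM, 2.11 ± 0.45, adjusted *p* = 0.00121), and was at 3.01 without wild-type library 1.

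Secreted proteins were mostly not called. Of 18 apolipoprotein and lipoprotein assembly genes, 3 were called higher and none lower. *Apoe*, which encodes a lipoprotein component taken up by receptors on hepatocytes, was at 34158, 25156, and 25251 CPM in wild type and 38933, 46662, and 39363 CPM in Scx-/- (0.73 ± 0.13, adjusted *p* = 1.15e-05). *Apoa2* (0.72 ± 0.16, adjusted *p* = 0.00314) and *Apoc1* (0.69 ± 0.17, adjusted *p* = 0.0229) also passed, and none of these groups overlapped. With library totals alone neither *Apoa2* (adjusted *p* = 0.0703) nor *Apoc1* (adjusted *p* = 0.243) was called. *Rbp4*, the plasma carrier of retinol, was at 6246, 4774, and 6196 CPM against 9103, 9660, and 9822 CPM. It rose by 0.91 ± 0.17 (adjusted *p* = 6.62e-05), and the retinol dehydrogenase family gene *Rdh9* was called higher as well (1.61 ± 0.40, adjusted *p* = 0.0236). The secreted ribonucleases *Rnase4* (1.40 ± 0.24, adjusted *p* = 1.02e-05) and *Ang* (1.19 ± 0.30, adjusted *p* = 0.0204) overlap on chromosome 14 (chr14:51091077-51106151 and chr14:51091150-51102009, both + strand), and reads could be shared between them. *Alb* was not called (94847, 91038, and 104234 CPM against 94535, 68280, and 80083 CPM), and 0 of 22 coagulation genes were. The transthyretin gene *Ttr* was at 20747, 22730, and 17818 CPM against 15034, 10858, and 12006 CPM, without overlap and without a call (−0.50 ± 0.15, adjusted *p* = 0.106).

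Among secreted proteins that fell, *A1bg* (chr15:60896859-60923012, − strand), which encodes a plasma glycoprotein, was at 76.9, 212, and 74.1 CPM in wild type and 0 in each Scx-/- library. The libraries held 110 counts in wild type and none in Scx-/-, which is at least 70.3-fold lower when the Scx-/- libraries together are set to 3 counts (adjusted *p* = 1.12e-07). *C8a*, a component of the terminal complement complex, was at 228, 481, and 169 CPM against 122, 49.3, and 53.4 CPM (−1.74 ± 0.45, adjusted *p* = 0.0282), and at −1.24 without wild-type library 2, where it was not called (adjusted *p* = 0.824). It was the called gene among 18 of complement. *Orm1*, an acute phase protein, was at 6.23, 273, and 0 CPM against 0, 5.10, and 0 CPM. This call rested on wild-type library 2, without which the adjusted *p* was 0.960.

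Endoplasmic reticulum chaperones, which fold secreted proteins, lay below 0 as a group. Of 20 tested, 1 was called lower and 0 higher, and 2 of the 19 at 20 CPM or more were above 0 (median −0.68, beside 0.07 for all genes). The list took 0.687%, 0.828%, and 0.680% of wild-type counts and 0.512%, 0.425%, and 0.410% of Scx-/- counts, without overlap. *Hspa5*, the main luminal chaperone, was at 958, 1354, and 734 CPM in wild type and 440, 424, and 283 CPM in Scx-/- and fell by 1.22 on the log2 scale (SE 0.29, adjusted *p* = 0.00922). Without wild-type library 2 it was at −0.99 and was not called (adjusted *p* = 0.241). *Calr*, at 993, 1378, and 797 CPM against 726, 544, and 379 CPM, did not overlap and was not called (−0.75 ± 0.28, adjusted *p* = 0.520).

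Lipid genes gave few calls. *Fabp1*, the liver fatty acid binding protein, was at 2921, 6218, and 4431 CPM in wild type and 2584, 1642, and 2344 CPM in Scx-/- (−0.84 ± 0.20, adjusted *p* = 0.0114). It was at −0.57 and not called without wild-type library 2 (adjusted *p* = 0.686). Of 44 fatty acid oxidation and ketogenesis genes, 2 were called higher, which were the *Cyp4a* genes above, and 1 lower, which was *Fabp1*. None of 25 cholesterol synthesis genes was called, although 0 of the 24 at 20 CPM or more was above 0 and their median log2 fold change was −1.01. Their summed share was 0.265%, 0.377%, and 0.486% in wild type and 0.334%, 0.0977%, and 0.0964% in Scx-/-. Scx-/- library 1, the female, lay within the wild-type range, and the other Scx-/- libraries lay below it. Without that library the median was −1.89. *Nudt7*, a peroxisomal enzyme that cleaves coenzyme A, was at 110, 461, and 176 CPM against 52.1, 17.0, and 12.1 CPM (−2.93 ± 0.54, adjusted *p* = 5.44e-05). It was not called without wild-type library 2 (−2.19, adjusted *p* = 0.285) and was at −3.86 without Scx-/- library 1.

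**Figure D4:**
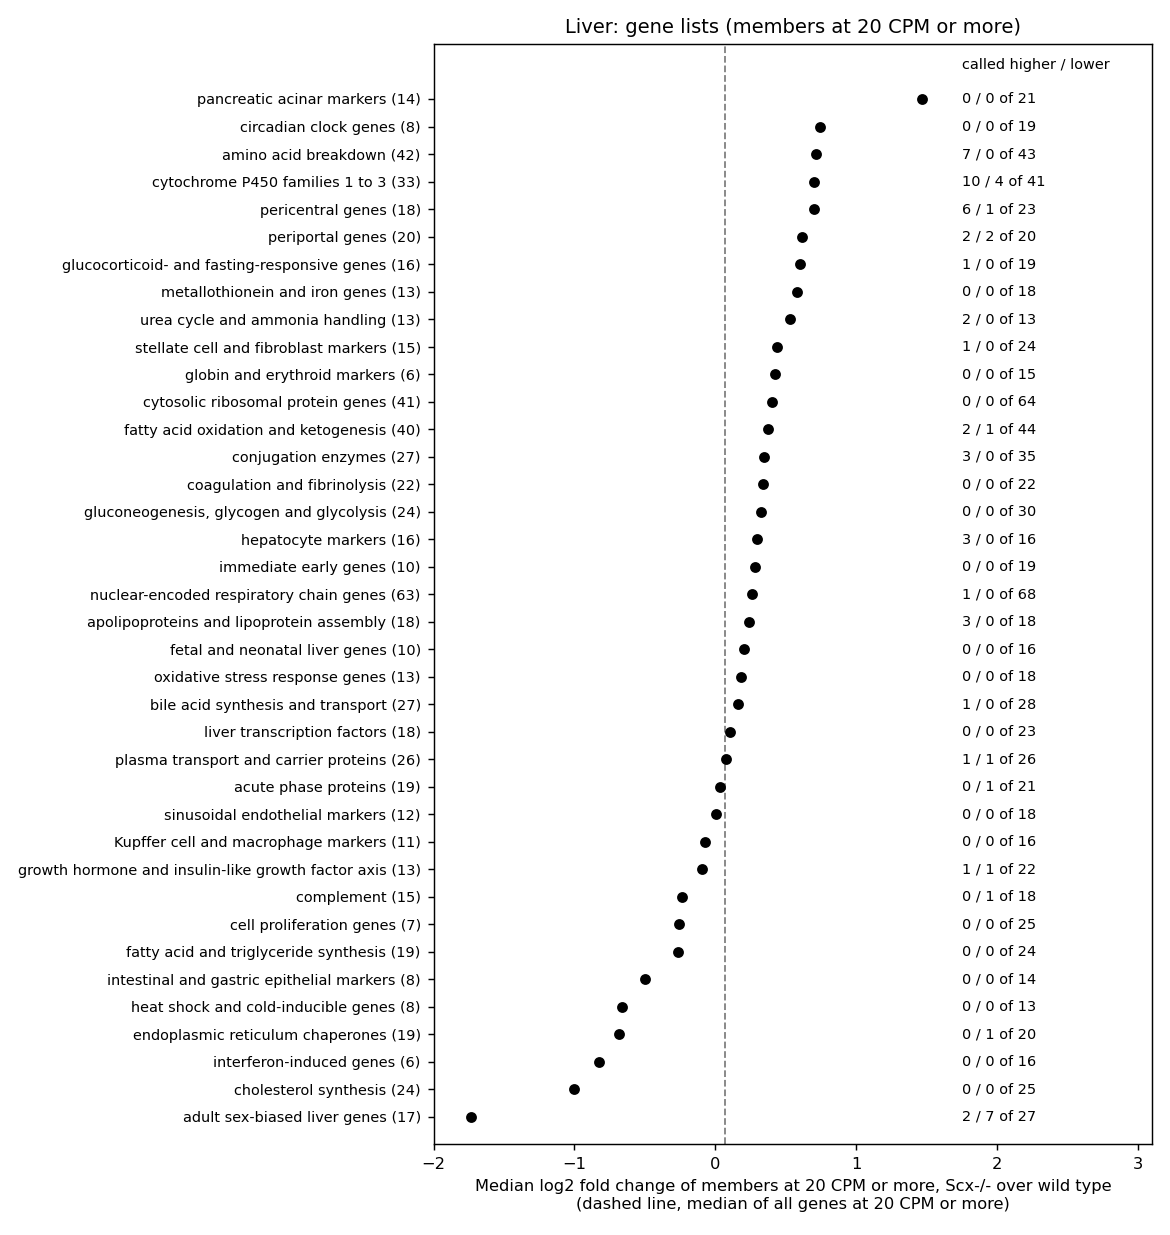
Median log2 fold change of Scx-/- over wild type (x axis) for the members of each gene list with a mean of 20 CPM or more (y axis, number of such members in brackets), beside the number called higher and lower of all members tested, with the dashed line at the median of all genes at that level (0.07). Amino acid breakdown (0.71) and P450 genes (0.70) lie to the right of the line, and endoplasmic reticulum chaperones (−0.68), cholesterol synthesis (−1.01), and adult sex-biased liver genes (−1.74) to the left.

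Of 27 genes tested whose level differs between adult male and female livers, 2 were called higher (*Cyp2d9*, *Cyp2b13*) and 7 lower (*A1bg*, *C8a*, *Cyp2c40*, *Cyp2c69*, *Cyp3a44*, *Nudt7*, *Selenbp2*). Over all genes tested, 0.299% were called higher and 0.142% lower, and among the 4899 genes at 20 CPM or more, 0.816% and 0.388%. The list was chosen with earlier results of these data known. It shares *Cyp2d9*, *Cyp2b13*, *Cyp2c40*, *Cyp2c69*, and *Cyp3a44* with the P450 list, so it is not separate evidence. The only male wild-type library was library 2, while Scx-/- libraries 2 and 3 were male. *Selenbp2*, a selenium-binding protein, was at 278, 522, and 395 CPM in wild type and 78.1, 15.3, and 107 CPM in Scx-/- (−2.36 ± 0.42, adjusted *p* = 2.15e-05). *Cyp2d9* was at 108, 351, and 102 CPM against 379, 577, and 374 CPM (1.46 ± 0.37, adjusted *p* = 0.0197). With a term for sex it was not called, and without wild-type library 2 it was at 2.22. The list had 2 calls higher and 4 lower without wild-type library 2, and without Scx-/- library 2 it had 5, all lower. The median log2 fold change of the 17 members at 20 CPM or more was −1.74, and −0.65 without wild-type library 2. With the sex term it stayed at −1.74. The major urinary protein genes, abundant in adult male liver, had a count for 2 of 21 listed, and only in wild-type library 2.

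*Car3*, a cytosolic carbonic anhydrase made in liver, muscle, and fat, was at 999, 2189, and 497 CPM in wild type and 277, 117, and 188 CPM in Scx-/-. The groups did not overlap, and it fell by 2.44 on the log2 scale (SE 0.30, adjusted *p* = 1.08e-11). It stayed called in the alternatives that left out 1 wild-type library, at −1.80 without wild-type library 2 (adjusted *p* = 0.000217), but not after filterByExpr (adjusted *p* = 0.0917). *Car3* was itself on the list of adipocyte markers, of which 7 were tested. The other 6 summed to 33.2, 77.5, and 42.3 CPM in wild type and 16.9, 5.10, and 13.8 CPM in Scx-/-, so they were lower in Scx-/- without overlap and were highest in wild-type library 2, as *Car3* was. None of the 6 was called, and *Cfd* and *Cidec* passed the study's thresholds on the lower side. *Cidec*, a lipid droplet protein, was at 53.0 CPM in wild-type library 2 and at 0 in the other libraries. *Fabp4* was at 29.1, 0, and 3.53 CPM against 6.51, 3.40, and 12.1 CPM, and *Adipoq*, the adipocyte hormone, was at 0 in 5 libraries and at 1.70 CPM in Scx-/- library 2. The part of adipocyte RNA in the fall of *Car3* was not tested.

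Some called genes had very few counts in 1 genotype. *Ces3b*, a carboxylesterase, had 75 counts in wild type and 1 in Scx-/-, a ratio of 144 (95% exact interval 25.0 to 5753), and 58 of its counts were in wild-type library 2. *Gopc*, a Golgi-associated protein, had 58 counts and 1, a ratio of 111 (19.2 to 4466). *1500017E21Rik* had 70 counts and 2, a ratio of 67.1 (17.9 to 565). In the other direction, *Metap1d*, a mitochondrial aminopeptidase, had 2 counts in wild type and 133 in Scx-/-, a ratio of 34.7 (9.42 to 289), with 95 of them in Scx-/- library 3. These intervals cover counting error only. The remaining called genes were *Ecm1* (2.25 ± 0.46), *Cdip1* (2.07 ± 0.52), *Ndufa6* (1.53 ± 0.38), *Cyp4a32* (4.25 ± 0.96), and *Rnr2* (0.53 ± 0.13) among those higher, and *Trp53inp2* (−2.29 ± 0.56) and *Aldh1a1* (−1.56 ± 0.39, and −0.58 without wild-type library 2) among those lower. *Cyp4a32* ran from 3.34 without Scx-/- library 2 to 5.69 without wild-type library 1, *Ecm1* was at 3.16 without wild-type library 1, and *Trp53inp2* at −3.24 without Scx-/- library 1.

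Markers of cells other than hepatocytes were read in all libraries and were mostly not called. *Hbb-b1*, a globin of red blood cells, was at 3700, 1158, and 3334 CPM in wild type and 5505, 4282, and 3311 CPM in Scx-/-, and the erythroid markers took 0.268% to 0.677% of a library, with overlap. The fibroblast markers *Sparc* (555 to 755 CPM) and *Dcn* (173 to 415 CPM) overlapped too. *Ecm1* was the called gene among 24 stellate cell and fibroblast markers, and none was called among 18 sinusoidal endothelial, 16 Kupffer cell, 8 cholangiocyte, 11 lymphocyte, and 15 erythroid markers. The lymphocyte markers took 0.00166% to 0.00326% of wild-type and 0.00429% to 0.00500% of Scx-/- libraries, and the Kupffer cell markers 0.0762% to 0.0899% and 0.0686% to 0.0743%, both without overlap. No lymphocyte marker reached a mean of 20 CPM, so their share rested on few counts. Pancreatic acinar markers took 0.0403%, 0.0620%, and 0.0473% of wild-type libraries and 0.0807%, 0.0762%, and 0.108% of Scx-/- libraries. They did not overlap, 0 of 21 were called, and their median log2 fold change was 1.36 over the 21 tested and 1.47 over the 14 at 20 CPM or more. Their defining members *Cpa1*, *Pnlip*, and *Cela2a* had counts in every library (*Cpa1* 20.8, 28.5, and 14.1 CPM against 46.8, 52.7, and 58.6 CPM). The part of these differences in the called genes was not tested.

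The called liver genes were then read in the other 15 tissues, each fitted alone. Kidney was the tissue with most calls among them in the liver direction, with 4 genes. For background, the calls among all genes tested were 30 in kidney (0.195%), 17 in bladder (0.112%), 63 in rectum (0.441%), and 4 in vascular samples (0.0329%). *Cyp2d26* (488 to 1186 CPM, 1.18 ± 0.27, adjusted *p* = 0.0264), *Cyp4a14* (478 to 1079 CPM, 1.06 ± 0.24, adjusted *p* = 0.00687), and *Apoe* (1345 to 3304 CPM, 1.19 ± 0.18, adjusted *p* = 8.17e-08) rose from wild type to Scx-/- there too, and *Car3* fell (161 to 21.1 CPM, −2.84 ± 0.58, adjusted *p* = 0.00125). *Car3* also fell in vascular samples (3500 to 1735 CPM, −1.42 ± 0.31, adjusted *p* = 0.0157). *Apoa2* was called higher in bladder, with 0 counts in wild type and 112 in Scx-/- (114 CPM on average, with an SD of 177 between the Scx-/- libraries, adjusted *p* = 6.31e-06). In the same edgeR test, 12 of the called liver genes had an unadjusted *p* under 0.05 in bladder, 10 of them in the liver direction. These 12 included *Cyp2c29*, *Cyp2c37*, *Cyp2c40*, *Gnmt*, and *Hpd*. The source of such counts in bladder was not tested. *Rnr2* moved against its liver direction in kidney (−0.47 ± 0.09, adjusted *p* = 0.000496) and bladder (−0.69 ± 0.17, adjusted *p* = 0.0335), and *Cyp2f2* in rectum (1.53 against 444 CPM, with an SD of 705 between the Scx-/- libraries). Whether the same mice gave these tissues was not stated, so tissues may not be independent.

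Whether the change in liver differed from that in kidney or spleen was tested as an interaction of tissue and genotype. Kidney was used because it shares metabolic genes with liver, and spleen because it shares blood and immune genes. No gene passed an adjusted *p* of 0.05 in edgeR's test against kidney (0 of 8884, 0%), where 556 genes had an unadjusted *p* under 0.05 and the smallest adjusted *p* was 0.113. Against spleen 0 of 6735 (0%) passed, 393 had an unadjusted *p* under 0.05, and the smallest adjusted *p* was 0.443. These tests could not decide for called liver genes without a count in the other tissue, as no change can be estimated there. Among such genes were *Mat1a*, *Cyp2c37*, and *Cyp2c50* in kidney and *A1bg*, *Cyp2a5*, and *Cyp2c69* in spleen. For *Mat1a* the difference against kidney was 1.16 with an SE of 1005. Of the genes called in liver, *Igfbp2* came closest against kidney, at 1.59 in liver and −2.03 in kidney (25.6 to 6.40 CPM), a difference of 3.50 ± 0.67 with an adjusted *p* of 0.113. *Oat*, which is abundant in kidney, was at 1.95 in liver and −0.12 in kidney, a difference of 2.02 ± 0.50 (adjusted *p* = 0.256). When all genes with a count in at least 1 of the 12 libraries were tested, 24 passed against kidney and 9 against spleen.

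**Figure D5:**
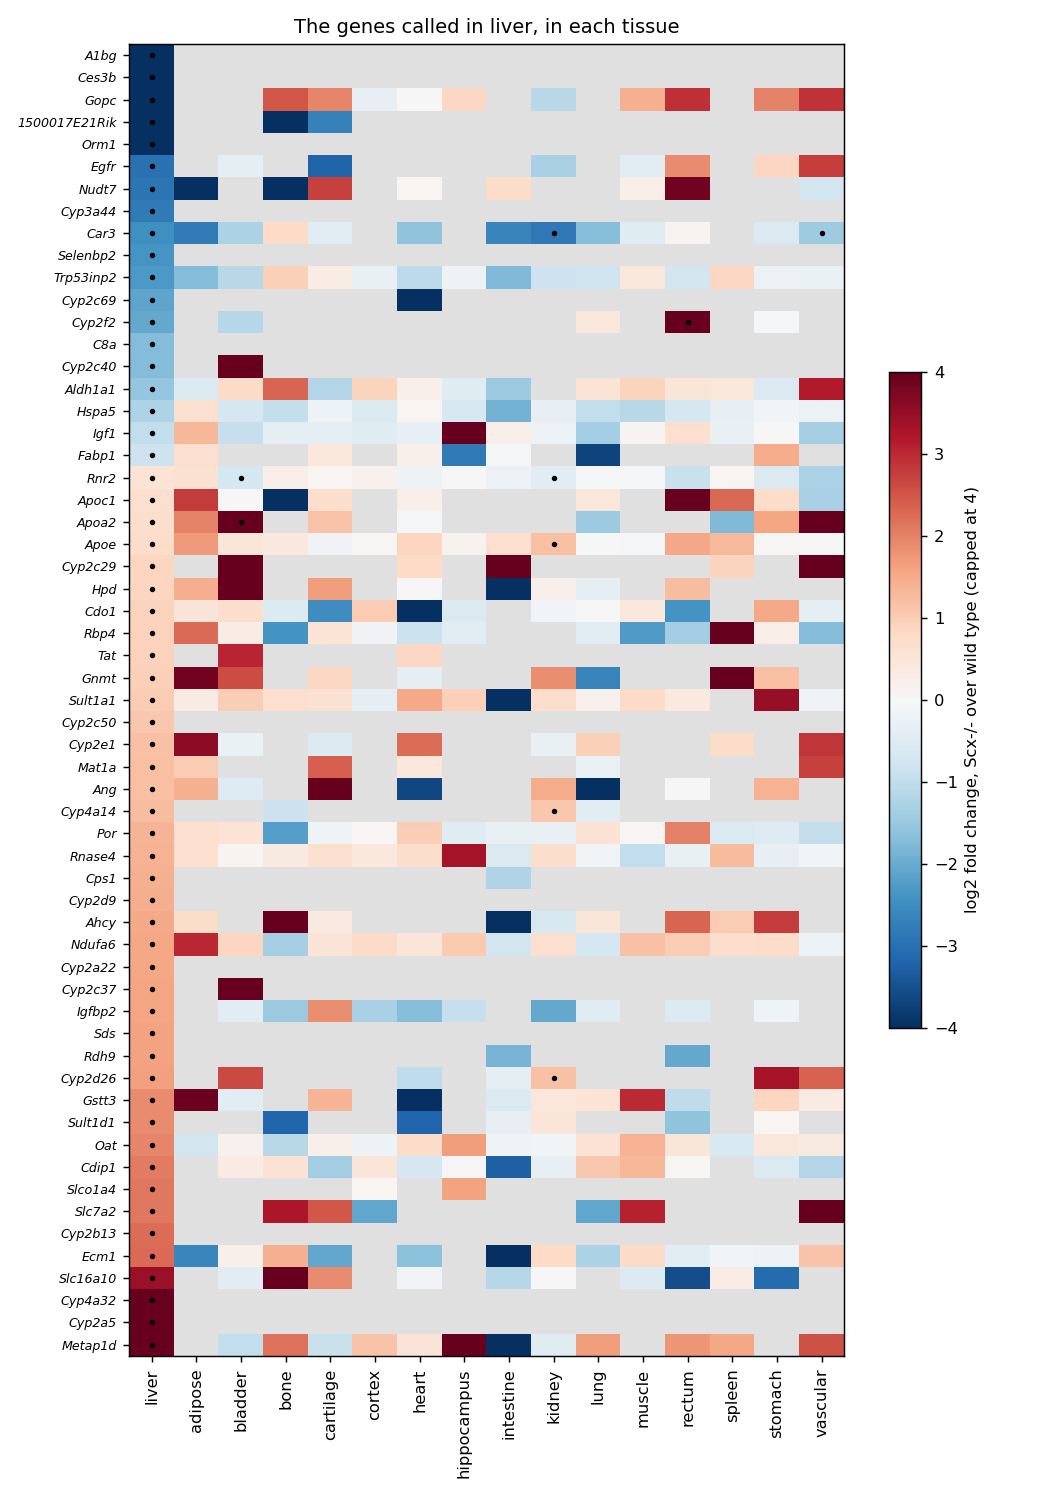
Log2 fold change of Scx-/- over wild type for the 59 genes called in liver (rows, ordered by the liver value) in each of the 16 tissues (columns), with colours capped at 4, grey where neither genotype reached a mean of 20 CPM, and dots where the adjusted p was under 0.05 in that tissue. Outside the liver column, which chose the rows, dots stand in kidney (5), bladder (2), vascular samples (1), and rectum (1).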

How the data were processed

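Bulk RNA was measured in 96 libraries, of which the 6 liver libraries are compared here, with kidney and spleen for interactions and all tissues for values set side by side. The deposited table holds raw counts for each gene symbol. To make them, the authors mapped reads with Bowtie2 (default settings, mm10) and counted them with HTSeq, and no normalization was applied. Versions, annotation, strand setting, and molecular identifiers were not given in the sources used here. The study describes its libraries as 3′-enriched, and the series record names another protocol. Groups were taken from the sample labels. As nothing states that replicates came from separate mice, *p*-values measure the spread between libraries.

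CPM was computed on library totals (245271 to 768443 counts in liver). Genotypes were compared with edgeR 4.0.16 (R 4.3.3, limma 3.58.1) by the quasi-likelihood test with TMM factors, robust estimation, genotype alone, and Benjamini-Hochberg adjustment over all 13356 genes with a count. Since 0.1 is the smallest *p* that permuting 3 and 3 libraries allows, the adjusted *p* of the model is given for each gene. The interactions used genes passing filterByExpr. DESeq2 1.42.0, the tool of the authors, was an alternative. Other alternatives were RLE and total scaling, filterByExpr, a replicate block, thinning to 245271 counts, leaving out the 10 most abundant or the sex-linked genes, a sex term, no robust estimation, and leaving out each library. The script was tested on simulated counts.

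Same-numbered libraries did not deviate together (correlations 0.00461, −0.00975, and −0.0307 over 4899 genes), so replicate numbers were not taken as pairs. Comparison, gene lists, and motifs were chosen with earlier results of these data known. Lists are described by counts, medians, and summed shares, without a set test. Named genes are *Scx*, called genes without overlap and at 10 CPM or more, called and up to 3 abundant members of each list, the 10 most abundant genes, and sex-linked genes, with others where stated. Not every gene that this rule covers is printed. Coordinates come from a GRCm38 annotation, which paired 57 of the 59 called genes, and promoters from RefSeq, which had 48 of them.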

Additional observations from a re-analysis of the deposited data

How the results depend on the processing

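No called gene changed sign in the alternatives run. The 59 calls at an adjusted *p* under 0.05 stayed within 1.5 times that count with RLE size factors (56), library totals alone (58), thinning (56), the 10 most abundant genes left out (56), sex-linked genes left out (59), a sex term (58), and no robust estimation (67). They fell to 6 after filterByExpr and to 31 with DESeq2, which gave no adjusted *p* for 19 of the 59, and to 24 with independent filtering and count outlier removal switched off, an alternative chosen after seeing the data. Leaving out 1 library gave 32 to 80 calls, with 37 without wild-type library 2, 39 without Scx-/- library 2, and 32 without Scx-/- library 3. The replicate block gave 47 calls, of which 42 were among the 59, and 328 genes past the study's thresholds in place of 573. Those thresholds passed 245 genes after filterByExpr and 336 to 709 without 1 library, 364 without Scx-/- library 2 and 336 without Scx-/- library 3. The replicate numbers are shared labels and not pairs, so calls lost under the block are not read as weaker effects. In the tests against kidney and spleen, the replicate block and both scalings also gave 0 calls. All genes with a count gave 24 and 9, and leaving out 1 liver library gave 0 to 7 against kidney and 0 against spleen. The cause of these changes was not tested. Of the 59 genes, 6 were called in every alternative that gave an adjusted *p*, 46 under both other scalings, and 14 in fewer than 9 alternatives: *Ang*, *Apoc1*, *Cyp2c29*, *Cyp2c40*, *Cyp2d9*, *Gopc*, *Gstt3*, *Igf1*, *Ndufa6*, *Rdh9*, *Rnr2*, *Slc16a10*, *Sult1a1*, and *Tat*. Depth limits the wild-type side most, since the smallest wild-type library held 245271 counts and 1 count there is 4.08 CPM.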

Other observations

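Among 19 glucocorticoid- and fasting-responsive genes tested, *Tat* was the only one called. Of the 16 at 20 CPM or more, 13 were above 0, and their median log2 fold change was 0.60, beside 0.07 for all genes at that level. The study's thresholds were passed by 3 of the 19 on the higher side and by 0 on the lower side. *G6pc*, the last step of glucose release, was at 295, 355, and 483 CPM in wild type and 541, 730, and 860 CPM in Scx-/- (log2 fold change 1.10 ± 0.31, adjusted *p* = 0.0692). *Pck1*, an early step of glucose synthesis, was at 1801, 2577, and 2057 CPM against 3333, 2845, and 3289 CPM (0.75 ± 0.21, adjusted *p* = 0.0692). The list of glucocorticoid- and fasting-responsive genes took 0.415%, 0.463%, and 0.491% of wild-type counts and 0.748%, 0.971%, and 1.53% of Scx-/- counts, with 1 of 19 members called. The metallothionein *Mt1*, which binds zinc and is a member of this list, was at 897, 322, and 540 CPM against 808, 2778, and 5473 CPM, with Scx-/- library 1 inside the wild-type range (2.51 ± 0.93, adjusted *p* = 0.746). *Mt2* was likewise highest in Scx-/- libraries 2 and 3, at 258, 367, and 261 CPM against 354, 1528, and 2713 CPM (2.56 ± 0.60, adjusted *p* = 0.239).

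Several further genes were picked after their values were seen. *Serpina3k*, an abundant secreted protease inhibitor, was at 6294, 16443, and 8475 CPM in wild type and 3668, 1298, and 2734 CPM in Scx-/-, without overlap and without a call (−1.80 ± 0.59, adjusted *p* = 0.746). *Ces3a*, a carboxylesterase like the called *Ces3b*, was at 532, 1704, and 452 CPM against 70.3, 0, and 63.8 CPM (−4.07 ± 1.51, adjusted *p* = 0.746). Cholesterol synthesis genes put Scx-/- library 1 apart from libraries 2 and 3. *Hmgcs1* was at 375 CPM in that library and at 28.9 and 37.9 CPM in the others, *Cyp51* at 91.1 against 6.81 and 3.45 CPM, and *Sqle* at 44.2 CPM against 0 in both. In wild type these genes were at 139, 603, and 741 CPM, at 56.1, 216, and 159 CPM, and at 16.6, 151, and 169 CPM, so library 1 was the lowest there.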
